A study of Sus scrofa with 9 samples.

Results

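The genes described here encode proteasome subunits and enzymes of the ubiquitin system, measured in 3 sorted T cell fractions of pig blood. They were chosen by symbol alone: every gene on the array whose pig symbol begins with PSMA to PSMG and a digit, UBE2, UBE3, USP and a digit, or UBA and a digit. The rule found 29 genes, 17 of the proteasome and 12 of the ubiquitin system, among 3052 genes that could be named on the array. They were read by 59 of the 6730 named probes, with 1 to 5 probes per gene. Each gene is given by its probe with the highest mean signal, and for the genes described in detail other tested probes are given beside it.

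The 9 microarrays were of lymphocytes from whole blood of sows, sorted after separation of the mononuclear cells on Percoll. The fractions, of 3 arrays each, are named by short forms: DP stands for CD3+CD4+CD8+, CD4 for CD3+CD4+ and CD8 for CD3+CD8+ cells. No treatment, genotype or breed is named in the labels, and every fraction came from the same kind of animal. The stated design sets DP against each of the other fractions, and CD4 against CD8 was added here. The sources used here do not give the antibodies, the sort purity, or the age and number of the sows. The labels call the arrays biological replicates without saying whether they came from separate animals. The p-values therefore measure only the spread between these arrays.

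The proteasome is a barrel of stacked rings that cuts proteins marked with ubiquitin into peptides. PSMA and PSMB genes encode its outer and inner rings, PSMC and PSMD genes the cap that recognises and unfolds ubiquitin-tagged proteins, and PSME genes the alternative PA28 caps. A cascade of activating, conjugating (UBE2) and ligating (UBE3 and others) enzymes attaches ubiquitin, and USP enzymes remove it. In lymphocytes, and in other cells under interferon, the catalytic subunits PSMB8, PSMB9 and PSMB10 replace PSMB5, PSMB6 and PSMB7 to form the immunoproteasome, which supplies peptides for class I MHC.

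Levels are log2 signals relative to the 75th percentile of the probes on the same array, so a level of 0 is the signal of a probe at that percentile. The percentile itself lay at a processed signal of 15.2 to 84.1 intensity units, and 32.6% to 53.7% of probes were well above background. A level depends on its probe, so levels of different genes were not ranked. The T cell genes CD3D, CD3E and CD3G were above background on all 9 arrays. CD4 had mean levels of 2.14 in DP, 1.92 in CD4 and -2.04 in CD8, with 1 of the 3 CD8 arrays above background, and CD8A had 3.47, 0.27 and 5.35. The B cell gene CD79A lay at -1.50 to 0.86 in DP, -0.10 to 0.64 in CD4 and 2.39 to 3.56 in CD8. The summed level of the 3 B cell markers on the array was -1.19 to 1.51 in DP, 0.12 to 1.21 in CD4 and 2.43 to 3.63 in CD8, and its part in the values below was not tested.

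Most of the 29 genes that could be named were measured in all 3 fractions. Of the 29 genes, 25 (86.2%) were well above background on all 9 arrays, against 37.4% of all named genes. These 25 include all 17 proteasome genes, so the remaining genes were all of the ubiquitin system. A gene without a value on an array was not counted among the 25, however bright it was elsewhere. The tests covered 26 genes, all 17 proteasome genes and 9 ubiquitin genes. UBE2D1, UBE2E2 and USP51 were too dim to be tested. A probe for PSMB5 could not be named, so PSMB8 had no constitutive counterpart in these data. Members of the ISG15 pathway other than USP18 (UBA7, UBE2L6) and the conjugating enzymes of mitosis (UBE2C, UBE2S, UBE2T) could not be named either and were not analysed here.

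None of the 26 genes differed between fractions beyond the spread between arrays. By limma with Benjamini-Hochberg adjustment over all 16024 tested probes, 0 of 26 passed an adjusted p of 0.05 between DP and CD4, where 0.293% of all tested probes passed. The count was also 0 of 26 between DP and CD8, where 0.312% of probes passed, and between CD4 and CD8, where 0.437% passed. At an unadjusted p under 0.05 the counts were 0 of 26 in each comparison, against 4.84%, 6.52% and 4.54% of all tested probes. A moderated F test over the 3 fractions called 0 of 26 genes and 0.612% of all tested probes. Taking all 54 tested probes of these genes in place of 1 per gene also gave 0 calls, with a smallest unadjusted p of 0.0963. Fitting the replicate number as a block raised the calls over all probes to 144, 83 and 110 in the 3 comparisons, and still called 0 of the 26 genes.

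The differences themselves were small. The median log2 difference over the 26 genes was 0.09 for DP minus CD4, -0.06 for DP minus CD8 and -0.11 for CD4 minus CD8, beside -0.02, -0.03 and -0.01 over all tested probes. Under quantile normalization the DP minus CD8 median turned to 0.02, and with a normexp background correction the medians for DP minus CD8 and CD4 minus CD8 turned to 0.09 and 0.09. Over all settings tried, the median changed sign in every comparison. It ran from -0.14 to 0.23 for DP minus CD4, from -0.22 to 0.15 for DP minus CD8 and from -0.28 to 0.19 for CD4 minus CD8. The median absolute difference over the 26 genes was 0.19, 0.19 and 0.14, beside 0.29, 0.34 and 0.34 over the 1500 named genes tested. These sets were not alike in detection, since 25 of the 26 but only 1140 of the 1500 were well above background on all 9 arrays. In bulk RNA of a fraction, fewer cells of a type and less RNA per cell cannot be told apart.

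A missing call does not show that the fractions were equal, and the intervals say how large a difference could be. The 95% intervals of limma held 0 for all 26 genes in all 3 comparisons. Their median half-width was 0.87 on the log2 scale. For 5 genes between DP and CD4, 7 between DP and CD8 and 9 between CD4 and CD8, the whole interval lay within a 2-fold difference either way. For the remaining genes a difference of 2-fold in at least 1 direction lay inside the interval. The plot of differences and intervals shows USP18 with the widest interval of the 26.

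**Figure D1:**
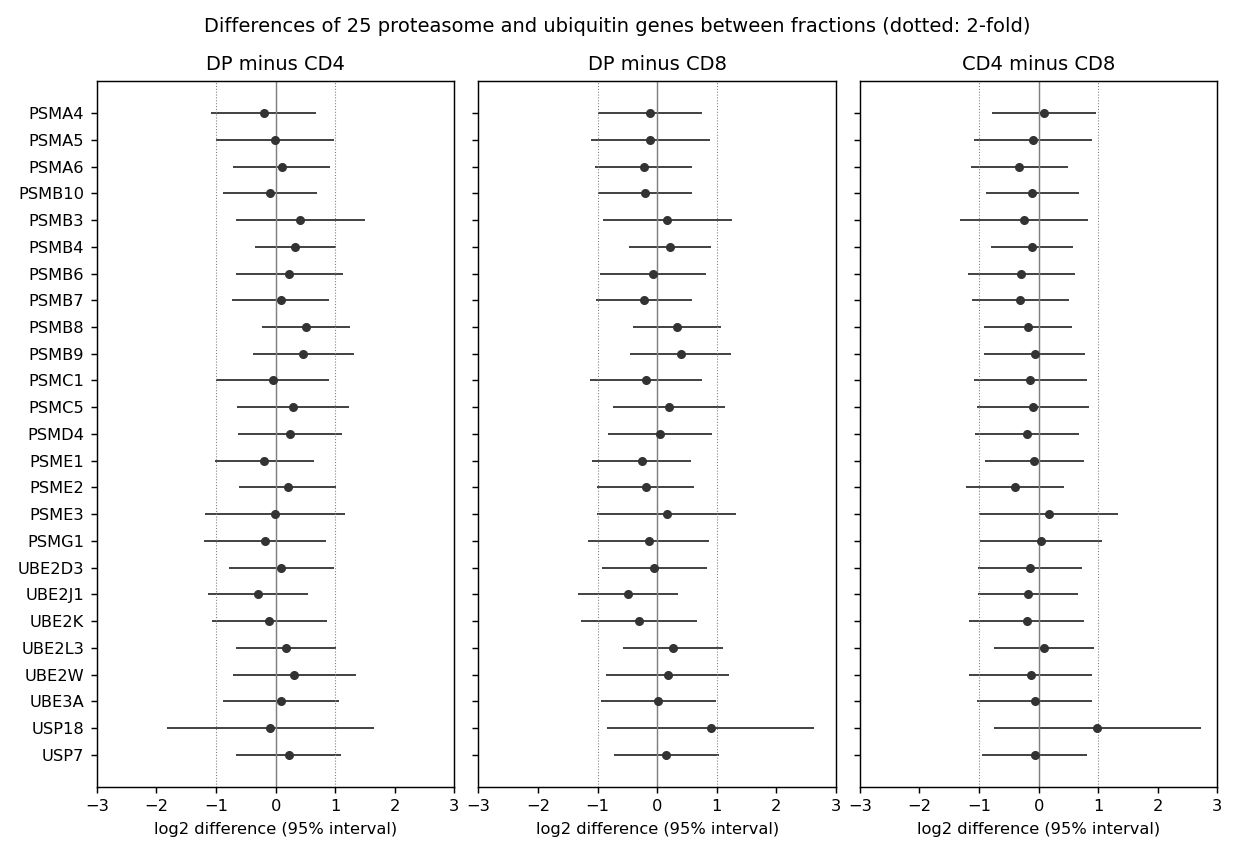
Log2 differences (points) with 95% intervals from limma (bars) for 25 of the 26 tested genes in the comparisons DP minus CD4, DP minus CD8 and CD4 minus CD8, with n = 3 arrays per fraction. The vertical line marks 0 and the dotted lines a 2-fold difference, and every bar crosses 0.

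Among the catalytic subunits, PSMB8, the immunoproteasome counterpart of PSMB5, came closest to separating DP from the other fractions. Its levels were 4.14, 3.74 and 3.83 in DP, 3.23, 3.73 and 3.20 in CD4, and 3.71, 3.34 and 3.64 in CD8. All 3 DP arrays lay above all arrays of both other fractions on this probe, but only just. The lowest DP array was at 3.738, the highest CD4 array at 3.730 and the highest CD8 array at 3.713. The log2 difference DP minus CD4 was 0.52 (SE 0.34, 95% interval -0.22 to 1.25), which is 1.43-fold, with an adjusted p of 1.00 by limma. DP minus CD8 was 0.34 and CD4 minus CD8 was -0.17, each with an SE of 0.34. All 3 PSMB8 probes gave a positive difference for DP against CD4, from 0.28 to 0.52, and against CD8, from 0.17 to 0.34. The separation was seen on the brightest probe only. On the other probes the DP arrays overlapped those of both other fractions, and on 1 of them the third DP array, at 1.05, was the lowest of the 9.

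PSMB9, which takes the place of PSMB6 in the immunoproteasome, was measured at 4.14, 4.15 and 3.68 in DP, 3.96, 3.49 and 3.14 in CD4, and 3.88, 3.93 and 2.97 in CD8. The fractions overlapped, since the lowest DP array fell among the arrays of the others. Its log2 differences were 0.46 for DP minus CD4, 0.39 for DP minus CD8 and -0.07 for CD4 minus CD8, each with an SE of 0.39 and an adjusted p of 1.00 by limma. Both PSMB9 probes were positive in the DP comparisons.

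PSMB10, which replaces PSMB7, showed no such lean towards DP. It stood at 2.86, 2.92 and 2.70 in DP, 2.77, 3.13 and 2.86 in CD4, and 2.94, 3.52 and 2.61 in CD8. The second CD8 array gave the highest value and the third CD8 array the lowest, so the widest spread was inside a fraction. The differences were -0.10, -0.20 and -0.10 in the order used above (SE 0.36). Over its 3 probes they spanned -0.10 to 0.27, -0.23 to -0.19 and -0.50 to -0.10.

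The constitutive subunits were likewise unresolved. PSMB6, the caspase-like subunit, had levels of 1.84, 2.29 and 1.41 in DP, 1.95, 1.37 and 1.54 in CD4, and 1.91, 2.39 and 1.44 in CD8, with differences of 0.23, -0.07 and -0.29 (SE 0.41). Its other probes turned the sign of the latter pair: over the 3 probes DP minus CD8 spanned -0.07 to 0.63 and CD4 minus CD8 -0.29 to 0.41. On 1 of them the DP arrays, 1.06 to 1.40, did not overlap the CD8 arrays, -0.03 to 1.05, and the adjusted p was 0.969 by limma. PSMB7, the trypsin-like subunit, had 3.02, 2.93 and 2.97 in DP, 3.02, 3.05 and 2.60 in CD4, and 3.09, 3.76 and 2.73 in CD8, with differences of 0.08, -0.22 and -0.31 (SE 0.37). Its second probe gave 0.34, 0.28 and -0.06. On the brightest probe of both genes, the second CD8 array was the highest of the 9.

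**Figure D2:**
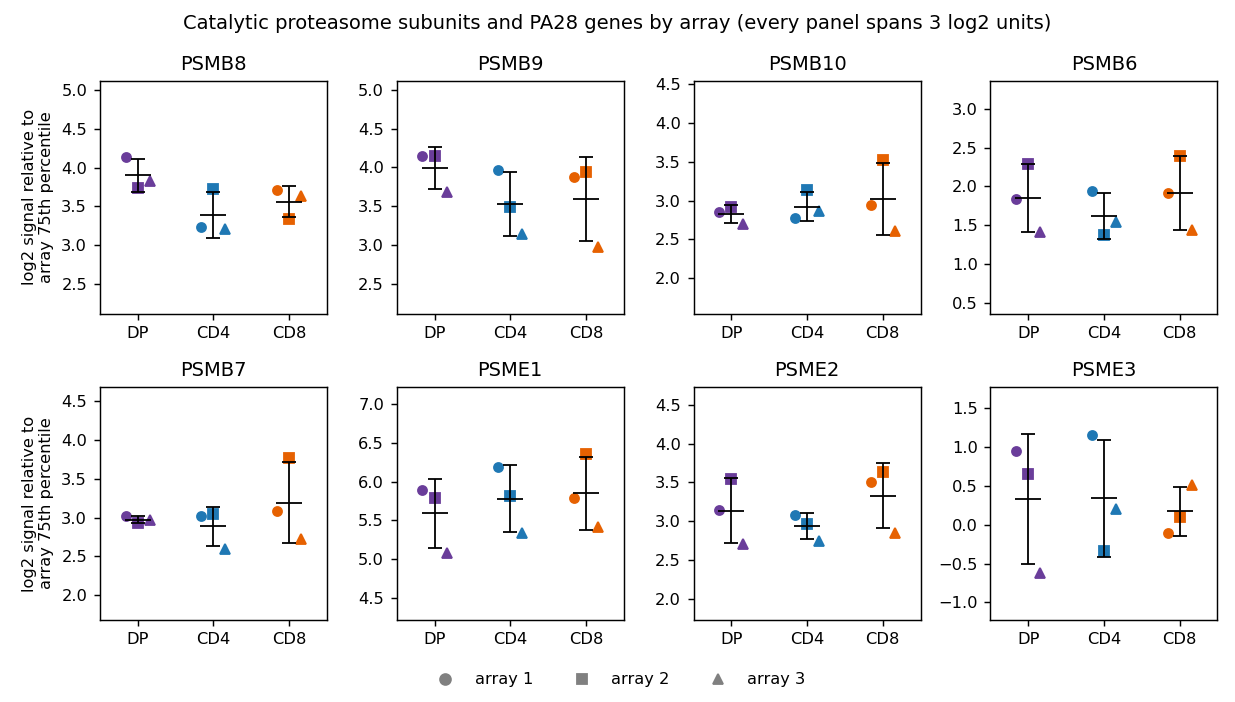
Levels of the catalytic proteasome subunits PSMB6 to PSMB10 and the PA28 genes PSME1 to PSME3 on each array, in log2 signal relative to the array's 75th percentile. Symbols are arrays 1 to 3 of each fraction, horizontal lines are means and bars are 1 SD (n = 3). On the probes shown, the fractions overlap for every gene except PSMB8, where the 3 DP arrays lie just above the others.

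The balance between immunoproteasome and constitutive subunits was followed on each array as the mean level of PSMB8, PSMB9 and PSMB10 minus the mean level of PSMB6 and PSMB7. Scaling an array cancels in this difference, so it does not depend on the percentile. Its absolute size depends on the probes and only its differences between arrays are read. The values were 1.28, 0.99 and 1.21 in DP, 0.84, 1.24 and 0.99 in CD4, and 1.01, 0.52 and 0.99 in CD8. DP had 1.16 ± 0.15 (SD, n = 3), CD4 had 1.02 ± 0.20 (SD, n = 3) and CD8 had 0.84 ± 0.28 (SD, n = 3). The arrays overlapped between every pair of fractions.

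The balance was 0.14 higher in DP than in CD4 (SE 0.15), 0.33 higher in DP than in CD8 (SE 0.18) and 0.19 higher in CD4 than in CD8 (SE 0.20). Against all 7 other PSMA and PSMB subunits, in place of PSMB6 and PSMB7, the same differences were 0.16, 0.23 and 0.07. The choice of probe mattered more. With the mean over all tested probes of a gene, DP minus CD8 was -0.0038 and CD4 minus CD8 was -0.12. Arrays on the same slide gave 0.30 on slide 3 and -0.25 on slide 2 for DP minus CD4, and 0.23 on both slides for DP minus CD8. For CD4 minus CD8 they gave 0.48 on slide 2 and -0.070 on slide 3. Each of these within-slide differences had a single array on at least 1 side, so no spread is given. The first DP array was alone on slide 1 and entered none of them.

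Each exchanging pair was also read on its own. PSMB9 minus PSMB6 was 2.14 ± 0.25 in DP, 1.91 ± 0.28 in CD4 and 1.68 ± 0.25 in CD8 (SD, n = 3), with DP minus CD8 at 0.46 (SE 0.20). PSMB10 minus PSMB7 was -0.14 ± 0.13 in DP, 0.03 ± 0.26 in CD4 and -0.17 ± 0.06 in CD8 (SD, n = 3), with DP minus CD8 at 0.03 (SE 0.08). In both pairs the arrays of the fractions overlapped. The 2 pairs were not tested against each other, and they rest on the brightest PSMB6 and PSMB7 probes, whose sign for DP minus CD8 the other probes did not share.

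**Figure D3:**
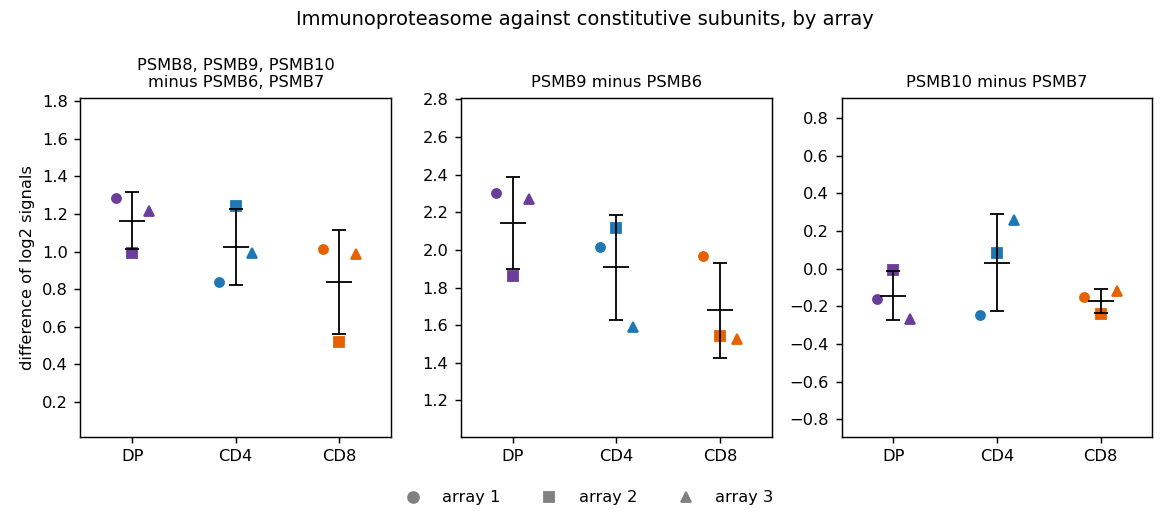
Immunoproteasome minus constitutive subunits on each array, as a difference of log2 signals, for all catalytic subunits measured (left), for PSMB9 minus PSMB6 (middle) and for PSMB10 minus PSMB7 (right). Horizontal lines are means and bars 1 SD of 3 arrays, and in each panel the arrays of every pair of fractions overlap.

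PA28 caps, which open the barrel without needing ubiquitin, were measured through all 3 of their genes. PSME1 and PSME2, the interferon-inducible partners that form 1 ring together, did not pass the test in any comparison. PSME1 lay at 5.90, 5.80 and 5.08 in DP, 6.19, 5.82 and 5.33 in CD4, and 5.78, 6.35 and 5.42 in CD8, and PSME2 at 3.15, 3.55 and 2.71, at 3.09, 2.97 and 2.75, and at 3.51, 3.63 and 2.85. On these probes each was lowest on the third array of every fraction and overlapped between fractions. The differences were -0.19, -0.26 and -0.07 for PSME1 and 0.20, -0.19 and -0.39 for PSME2 (SE 0.38 for both). A second PSME1 probe gave -0.55, -0.08 and 0.47 (SE 0.34), and all 3 CD4 arrays of it lay above all 3 CD8 arrays, with an adjusted p for CD4 minus CD8 of 0.999 by limma. PSME3, the nuclear member, ranged from -0.62 to 1.16 over the 9 arrays, both extremes outside CD8, with differences of -0.01, 0.16 and 0.17 (SE 0.54).

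Of the ring subunits without a catalytic site, none passed the test. In the outer ring, PSMA4 ranged from 0.32 to 1.12, PSMA5 from 1.29 to 2.68 and PSMA6 from 3.35 to 4.57 over the 9 arrays, with DP minus CD4 differences of -0.20, -0.01 and 0.10. The 3 probes of PSMA4 spanned -0.20 to 0.05 and those of PSMA6 -0.08 to 0.10. In the inner ring, PSMB3 gave 0.41 for that comparison (95% interval -0.67 to 1.49) and PSMB4 gave 0.33. PSMB4 had the smallest range of the 26 tested genes, 0.68 from 4.61 to 5.29. All 5 of its probes were positive for DP against CD4, from 0.20 to 0.54, and for DP against CD8, from 0.19 to 0.69, and none of them passed the test. Of the 7 inner ring genes with all subunits counted, 6 were positive for DP minus CD4, 4 for DP minus CD8 and 0 for CD4 minus CD8, and 0 passed in each.

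In the cap, the unfolding ATPases PSMC1 and PSMC5 ranged from 2.58 to 4.31 and from 3.44 to 4.67. Their DP minus CD4 differences were -0.05 and 0.29, and -0.23 to -0.05 and 0.06 to 0.29 over all their probes. PSMD4, the cap's ubiquitin receptor, ranged from 1.18 to 2.08, with differences of 0.24, 0.04 and -0.20 (SE 0.40). A second, dimmer PSMD4 probe, well above background on only 1 of the 3 CD8 arrays, gave the opposite sign for CD4 minus CD8, with an unadjusted p of 0.0963 by limma. PSMG1, a chaperone that helps to build the barrel, ranged from 2.27 to 3.96 and had differences of -0.18, -0.14 and 0.04.

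The DP and CD4 arrays did not overlap for 2 of the 26 genes (7.69%), PSMB8 among them, and the count for DP and CD8 was the same, again with PSMB8. Over all tested probes, 10.1% did not overlap between DP and CD4 and 9.79% between DP and CD8. Between CD4 and CD8 it was 0 of 26 genes and 8.01% of probes. These shares lay near or under the background and are no result about the members.

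**Figure D4:**
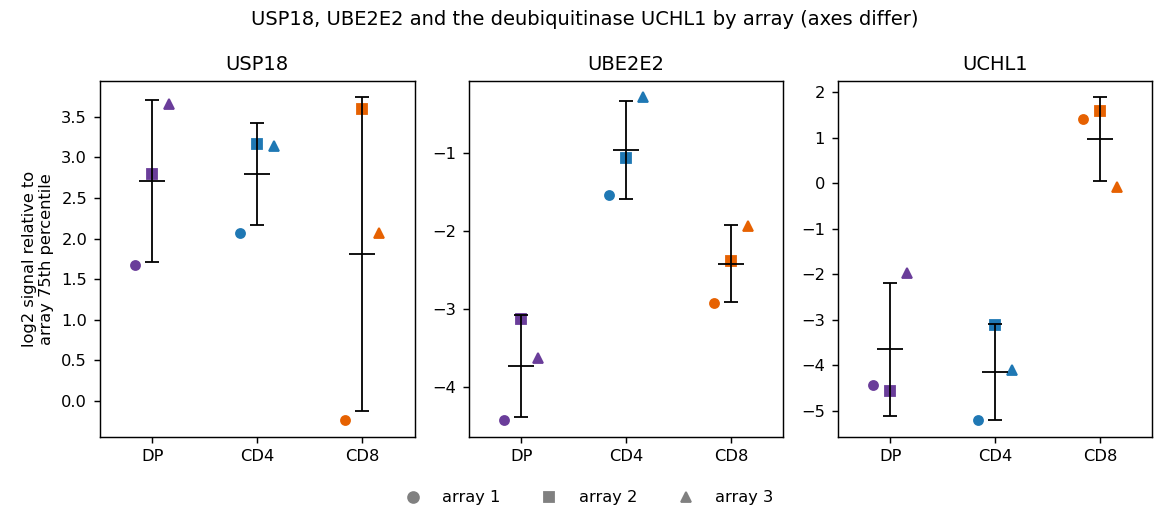
Levels of USP18, UBE2E2 and the deubiquitinase UCHL1 on each array, in log2 signal relative to the array's 75th percentile, with an axis of its own for each gene. Symbols are arrays 1 to 3, lines are means and bars 1 SD of 3 arrays. USP18 is lowest on the first CD8 array, UBE2E2 is highest on the CD4 arrays, and UCHL1 is high on the CD8 arrays only.

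In the ubiquitin system, none of the conjugating enzymes tested passed in any comparison by limma. UBE2J1, which serves the disposal of misfolded proteins at the endoplasmic reticulum, ranged from 1.73 to 2.98 and gave the smallest p of the 26 for DP minus CD8. That difference was -0.48 (SE 0.39), with an adjusted p of 0.997 by limma, and a second probe gave -0.51. UBE2K ranged from 2.17 on the third CD8 array to 4.04 on the second, both in 1 fraction, and its DP minus CD8 difference was -0.31. UBE2L3, the partner of ligases of the HECT and RBR classes, gave 0.18, 0.26 and 0.08, with its second probe positive in all 3 comparisons. UBE2W, which modifies protein N-termini, gave 0.31, 0.18 and -0.14. UBE2D3, a broad partner of many ligases, lies outside the rule for naming genes and is given to account for every member, with 0.10, -0.04 and -0.14, and its 3 probes differed in sign for DP minus CD8 and for CD4 minus CD8. The ligase UBE3A gave 0.09, 0.02 and -0.07, and ranged from -0.36 to 0.75.

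Of the ubiquitin proteases, USP7, which acts on p53 and its ligase MDM2, lay between 3.57 and 4.91, with differences of 0.22, 0.16 and -0.07. Over its 4 probes these spanned -0.08 to 0.22, 0.09 to 0.41 and -0.07 to 0.49. USP18, which removes the ubiquitin-like protein ISG15 and restrains interferon signalling, was the most variable tested gene, with a range of 3.90. It read 1.67, 2.80 and 3.66 in DP, 2.07, 3.17 and 3.15 in CD4, and -0.24, 3.60 and 2.07 in CD8. The first CD8 array stood far below the other 8, and the second CD8 array was among the highest. The differences were -0.09 for DP minus CD4, 0.90 for DP minus CD8 and 0.99 for CD4 minus CD8 (SE 0.80 for each). Without the first CD8 array the latter became -0.13 and -0.041, so their size and sign came from that array.

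ISG15 itself read 2.79, 4.23 and 3.22 in DP, 3.00, 3.89 and 2.91 in CD4, and 2.24, 3.60 and 1.85 in CD8, where the third array was the lowest and not the first. Its differences were 0.15, 0.85 and 0.71 (SE 0.53), and it did not pass the test in any comparison by limma. On every fraction the second array gave its highest level. Of the 8 interferon-inducible genes listed and named on the array, 6 were tested and 0 passed, with median differences of 0.37, 0.16 and -0.22.

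UBE2E2, a conjugating enzyme, was read near or below the detection limit. Its values were -4.43, -3.13 and -3.63 in DP, -1.54, -1.06 and -0.29 in CD4, and -2.93, -2.39 and -1.94 in CD8. Every CD4 array lay above every DP and CD8 array, but the probe was well above background on only 2 of the CD4 arrays and on 0 of the others. No fold is given, since the second CD4 array lay under its own limit. The gene did not enter the main test. Tested without the filter on dim probes, the unadjusted p for DP against CD4 was 0.0013 and the adjusted p was 0.252 by limma, and for CD4 against CD8 the adjusted p was 0.993. A second UBE2E2 probe was also highest on average in CD4 and was likewise well above background on only 2 arrays. UBE2D1 was well above background on 3 of the 9 arrays, and the histone deubiquitinase USP51 on 0.

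Other genes of the pathway, outside the symbol rule, were read from a list of 124 symbols, of which 38 were named on the array and 33 tested. The list holds ubiquitin and its relatives, other deubiquitinases, ligases, shuttle factors, peptide loading and interferon-inducible genes. Their median differences were 0.13 for DP minus CD4, 0.14 for DP minus CD8 and -0.00057 for CD4 minus CD8. By limma 0 of 33 passed between DP and CD4 and 0 between DP and CD8, and 1 passed between CD4 and CD8, lower in CD4.

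That gene was UCHL1, a small deubiquitinase best known from neurons. It read 1.40, 1.60 and -0.09 in CD8, -4.43, -4.57 and -1.97 in DP, and -5.21, -3.11 and -4.11 in CD4. It was well above background on all 3 CD8 arrays and on no other, so it passed the filter for testing only through the fraction where it was high. Its list was also drawn up with earlier results of these data known. The p-values and alternatives that follow describe this probe and are no independent support for a difference. CD8 was at least 7.46-fold above CD4 (adjusted p = 0.0244 by limma) and at least 7.27-fold above DP, where the adjusted p was 0.0522. The call between CD4 and CD8 held in 12 of 18 alternatives, with adjusted p from 0.0012 to 0.176, and was lost under the normexp background correction, with slide as a block, without the first or the third CD4 array and without the first or the second CD8 array. The B cell gene CD79A was high on the same 3 CD8 arrays, and its part in the UCHL1 values was not tested.

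Peptide loading genes lie next to the immunoproteasome genes in the pig annotation, where TAP2, PSMB8, TAP1 and PSMB9 follow each other in a row inside the MHC. TAP1 and TAP2 form the pump that carries proteasome peptides into the endoplasmic reticulum. TAP1 read -0.04, -0.03 and -0.71 in DP, 0.28, -0.42 and -0.20 in CD4, and -1.39, -3.68 and -0.07 in CD8. TAP2 read -1.18, -0.21 and -0.47 in DP, -0.41, -1.94 and -0.36 in CD4, and -1.73, -2.79 and -0.60 in CD8. Both were lowest on the second CD8 array. Each was well above background on only 1 of the 3 CD8 arrays, so no size is given for a difference from CD8. Of the 5 peptide loading genes tested 0 passed in any comparison by limma.

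Under the main scaling, the second CD8 array set the highest values of many proteasome genes. Of the 26 genes, 22 lay above their own mean of the 9 arrays there, and the median deviation was 0.49, beside 0.14 for the 1500 named genes. It was the highest of the 9 arrays for 12 of the 26 (PSMA6, PSMB6, PSMB7, PSMB10, PSMC1, PSMC5, PSME1, PSME2, PSMG1, UBE2D3, UBE2J1 and UBE2K) and the lowest for 0. Of the 1500 named genes, 24.3% were highest and 18.9% lowest on that array. The median deviation of the 26 genes there was 0.24 under quantile normalization, beside -0.04 for the 1500 named genes. With normexp it was 0.24, beside 0.02 for the named genes. The first CD4 array was higher with normexp (0.50, with 24 of 26 above their mean), beside 0.24 for the named genes. Other probes of the same genes did not always follow, since a dimmer PSMC5 probe had its lowest level, 0.56, on that array.

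On the brightest probes, PSMB8 was at 3.34 on the second CD8 array, the lowest of its 3 CD8 values, while PSMB6, PSMB7 and PSMB10 were at their highest. Not every probe shared this contrast. A dimmer PSMB8 probe had its middle CD8 value there, 2.19, and a PSMB6 and a PSMB7 probe were highest on the first DP array. The remaining probes of these genes went the same way as the brightest. The balance of catalytic subunits, taken from the brightest probes, had its lowest value, 0.52, on the second CD8 array. Leaving the array out turned the median difference over the 26 genes from -0.06 to 0.15 for DP minus CD8 and from -0.11 to 0.09 for CD4 minus CD8.

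Arrays with the replicate number 3 leaned the other way in every fraction under the main scaling. On them 20 genes in DP, 21 in CD4 and 21 in CD8 of the 26 lay below their own mean, with median deviations of -0.20, -0.28 and -0.30. The 1500 named genes deviated by -0.06, -0.11 and -0.19 on the same arrays. Under quantile normalization the deviations of the 26 genes were -0.11, -0.14 and -0.19. With the percentile over detected probes they were -0.08, -0.15 and -0.15, with 14, 15 and 19 of 26 genes below their mean. With normexp they were -0.35, -0.15 and -0.20, and the second CD4 array (-0.32) and the first CD8 array (-0.24) lay lower than the third of their fractions. These 3 arrays were on 1 slide together with the first CD4 array, whose median deviation was -0.02, and 0.50 with normexp. The plot of deviations by array shows these shifts beside those of all named genes.

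**Figure D5:**
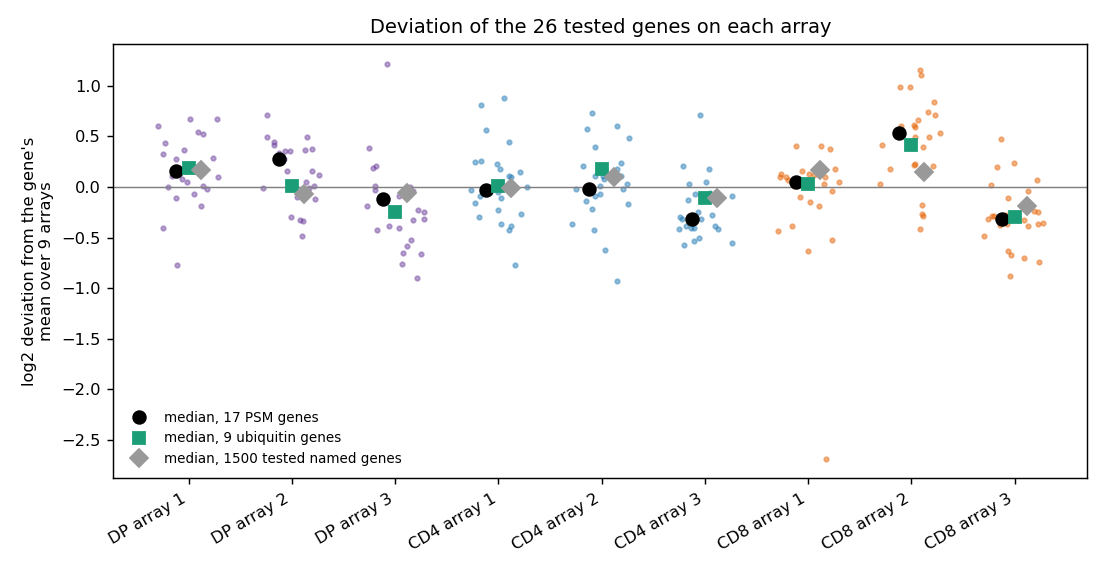
Deviation of each of the 26 tested genes (small points) from its own mean over the 9 arrays, in log2 units, with the median of the 17 proteasome genes (circles), of the 9 ubiquitin genes (squares) and of the 1500 tested named genes (diamonds) on each array. The proteasome median is 0.54 on the second CD8 array and -0.32 on the third CD8 array.

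For the 26 genes, the median SD of single arrays within a fraction was 0.41. The median SD of the 3 fraction means was 0.15, and means of 3 arrays scatter less than single arrays by construction, so the figures are not set against each other. For the 1140 named genes above background on all 9 arrays the same figures were 0.53 and 0.25, a contrast that was given as a description and not tested. The median range over the 9 arrays was 1.24 for the 26 genes and 1.60 for those 1140 genes. The proteasome genes alone had a median SD within fractions of 0.41, and so did the ubiquitin genes.

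Probes of 1 gene did not always give the same sign. Of the 16 genes with several tested probes, the probes differed in sign for 5 between DP and CD4, for 5 between DP and CD8 and for 9 between CD4 and CD8. PSMB8, PSMB9 and PSMB4 were among those whose probes kept their sign in both comparisons of DP.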

How the data were processed

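The members and gene lists were chosen with earlier results of these data known. Per the labels' protocols, 25 ng of RNA was amplified and labelled with Cy3. Per the file headers and the submitters' processing notes, Agilent Feature Extraction 11.0.1.1 made the deposited intensity values, corrected for background and not normalized between arrays. The deposited value table is on a log2 scale, with a median of 2.60 in each column. Each array's log2 intensity was taken relative to its 75th percentile over non-control probes, after leaving out 1 to 12 flagged spots per array. Saturated spots numbered 0. Probes were tested if well above background on all 3 arrays of a fraction, with at least 2 values per fraction. Probes were named by unversioned accession in the annotation of Sscrofa11.1 (6730 of 43603 probes, 15.4%). The files name no build, so no coordinates are given. All 9 arrays entered one fit with limma 3.58.1 (R 4.3.3) and a variance trend. The fit was tested on simulated data. The files hold no mean signal, so normexp used median signals, with an offset of 50.

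Genes named were the catalytic subunits and PSME genes, every called gene, up to 4 genes per family with the smallest F test p, USP18 and the sorting markers. TAP1, TAP2, ISG15, CD79A, UBE2E2 and the further probes given beside a gene's brightest one were chosen after their values were seen. For a probe dim in a whole fraction, the bound sets the brighter mean against, per dim array, the higher of the lowest signal well above background and the probe's own. Same-numbered arrays share a number in their deposited names, and the sources used here do not say what it stands for. Their deviations correlated at 0.27 to 0.33 between DP and CD8, at -0.07 to 0.65 between DP and CD4 and at -0.03 to 0.39 between CD4 and CD8. Differently numbered arrays correlated at -0.30 to 0.04, at -0.57 to 0.42 and at -0.31 to 0.14 in the same order. The 0.65 was between the third DP and the third CD4 array, which share a slide. The main fit has no block. The value table's CD8 columns 1, 2 and 3 held scanner arrays 3, 1 and 2. The number of arrays limits the precision. Figures were drawn with Python 3.11.15 and matplotlib 3.10.9. The values of 1 tested member are not reported here, though it stays in the counts and medians over the 26 genes.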

Additional observations from a re-analysis of the deposited data

How the results depend on the processing

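No member passed the test under any of the 19 alternatives fitted, and the smallest adjusted p of a member was 0.495 by limma. Of 1479 single-gene differences under alternatives, 141 turned sign within their standard error. USP18 reversed without CD8 replicate 1, to -0.13 for DP minus CD8 and to -0.041 for CD4 minus CD8, and leaving out 1 array took these differences up to 1.79 and 1.88, both without CD8 replicate 2. The counts over all probes moved more, and the cause was not tested. The first DP array was alone on slide 1, so with slide as a block it carried no weight in the differences between fractions. Between DP and CD4 the 47 calls became 1 with normexp, 109 without the filter on dim probes, 12 with only probes above background on all arrays and 2 with slide as a block. Between DP and CD8 the 50 became 7, 87, 5 and 2 in that order, 22 with the percentile over detected probes and 24 in the value table. Between CD4 and CD8 the 70 became 6 with normexp, 12 with the strict filter and 38 with the slide block. The F test's 98 became 7, 201, 18 and 32 in the first order. The replicate block gave 144, 83, 110 and 212, and with the value table's CD8 numbering 30 and 21 for the DP comparisons. It changed no call of a member. Leaving out 1 array gave 2 to 55, 1 to 51, 31 to 81 and 52 to 114 calls, the lowest without DP replicate 1 for both DP comparisons and without CD8 replicate 2 for the others. The member median for CD4 minus CD8 was 0.19 within slide 3. The balance of catalytic subunits was -0.25 within slide 2 for DP minus CD4, and 0.48 and -0.070 within slides 2 and 3 for CD4 minus CD8. Averaged over probes it was -0.0038 for DP minus CD8 and -0.12 for CD4 minus CD8. Leaving out 1 array gave 0.05 to 0.25, 0.17 to 0.41 and 0.03 to 0.28. Signal over background limits the 3 untested genes.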
